A study of Rattus norvegicus with 12 samples.

Results

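The genes described here are the heat shock proteins, the heat shock factors and the DnaJ and Bag cochaperones of the array, chosen by their names in the scanner files. The name rule found 80 genes, measured by 121 probes on 130 spots, among 41012 probes on 43379 spots. The RNA came from PC12 cells, a line from a rat adrenal pheochromocytoma. These cells were given PACAP38, a neuropeptide of the VIP and glucagon family, at 1e-07 M for 5, 10, 15, 30, 60 or 120 min, and the control RNA of each time point came from PC12 cells labelled as control. Both kinds of cells grew in RPMI medium with fetal bovine and horse serum on dishes coated with type IV collagen. RNA was pooled (n = 6) per treatment and time point. The PACAP38 pool and the control pool of the same time shared 2 arrays, with PACAP38 in Cy5 on one and in Cy3 on the other. Each time point is therefore 1 replicate in 1 cell line, and in place of an error the folds of both dye-swapped arrays are given for the genes that were counted and for those near the limits. The 3 slides held 5 and 10 min, 15 and 30 min, and 60 and 120 min, so the late time points and the third slide cannot be told apart.

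Heat shock proteins are chaperones that hold, fold or disaggregate other proteins. Hsp70 proteins (Hspa genes) bind unfolded stretches in a cycle of ATP hydrolysis, which J proteins (Dnaj genes) start and nucleotide exchange factors, among them the Bag proteins, end. Hsp90 proteins mature kinases and receptors, Hspd1 and Hspe1 form the folding chamber of mitochondria, and small heat shock proteins (Hspb genes) hold unfolded proteins without ATP. Bag3 binds both Hsp70 and the small heat shock proteins Hspb8 and Hspb6, and with Hspb8 takes part in chaperone-assisted selective autophagy. Heat shock factor 1 switches on many of these genes during heat or proteotoxic stress through repeated GAA units in their promoters.

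Of the 80 genes, 5 were counted higher with PACAP38 at 120 min: Bag3, Dnajb9, Hspb1, Hspa4l and Hspb8. Of these, Bag3 was also counted at 60 min. At 120 min this was 6 of 121 member probes (4.96%), beside 1.95% of all probes. Among probes well above background in at least 1 RNA on both arrays, it was 6.32% of members, beside 4.24% of all. To be counted, a probe needed a PACAP38 to control ratio of 2 or more (higher) or 0.5 or less (lower), with a deposited spot p-value below 0.01, on each of the dye-swapped arrays. The promoters of Bag3, Hspb1 and Hspb8 are shown because the same pair of GAA units lies upstream of each, and because Bag3 binds small heat shock proteins. The 150 bases before each start are given 5′ to 3′ on the gene's strand from RefSeq (GRCr8), with capitals for each match to GAANNTTC, the heat shock element in 2 units. They lie at chr1:192533310-192533459 on the plus strand, chr12:26432302-26432451 on the minus strand and chr12:45837158-45837307 on the plus strand.
Bag3: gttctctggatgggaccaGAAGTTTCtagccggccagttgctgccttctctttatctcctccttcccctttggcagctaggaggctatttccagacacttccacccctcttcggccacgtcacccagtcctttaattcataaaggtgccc
Hspb1: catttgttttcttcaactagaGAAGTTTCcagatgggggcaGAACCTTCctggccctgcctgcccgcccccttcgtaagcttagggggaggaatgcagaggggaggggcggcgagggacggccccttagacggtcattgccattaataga
Hspb8: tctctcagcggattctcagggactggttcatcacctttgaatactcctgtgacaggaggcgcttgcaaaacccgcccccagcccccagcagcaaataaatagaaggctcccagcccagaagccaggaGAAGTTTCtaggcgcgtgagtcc

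The pair of units began 132 bases upstream of the start in Bag3, 129 and again 109 bases upstream in Hspb1, and 23 bases upstream in Hspb8. The longest run of letters on the gene's strand shared by the 250 bases upstream of all 3 starts was the 9 bases AGAAGTTTC, which covers the element in each. The run was picked as shared by these 3 genes, so that they hold it follows from the choice. Of the 63 members with a promoter entry no other held it on either strand, and it was found in 0.442% of all 33469 promoters. The 2-unit element GAANNTTC, which is its own reverse complement, was in 8.59% of all promoters and in 14 of the 63 members (22.2%). Of these 14, 11 were not counted, among them Hspb6, another partner of Bag3, with the element 149 bases upstream. The 11 include Dnajc5g, which was well above background on no array, and the dim Hsph1, so not being counted says little of these. The shared run and the 2-unit elements were looked for after the folds were known.

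The heat shock element in 3 units (GAANNTTCNNGAA, both strands) was in none of the 5 counted genes. It was in 0.798% of all promoters and in 5 members (7.94%): Dnaja1, Hspa8, Hspd1, Hspe1 and Hsph1. Every 3-unit match also contains matches to both 2-unit elements. None of these 5 was counted at any time point, Hsph1 being too dim to be read at most of them, and an element of 4 of them is shown here with 8 bases on each side, for comparison with those above. Each is 1 match upstream of the start, with the element in capitals, at chr8:50080293-50080321 on the plus strand, chr9:64084254-64084282 on the minus strand, chr9:64084259-64084287 on the plus strand and chr12:10427324-10427352 on the plus strand. Hspd1 and Hspe1 lie head to head, and their entries overlap at one element.
Hspa8: gcgagcgtGAAAGTTCCAGAAcgctgcgg
Hspd1: gccttccgGAAGGTTCTAGAAccgagcgc
Hspe1: cggttctaGAACCTTCCGGAAggccccgc
Hsph1: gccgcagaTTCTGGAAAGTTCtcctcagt

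The ER stress element (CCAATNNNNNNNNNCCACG, both strands) was in 0.0657% of all promoters and in Hspa5, Hsp90b1 and Dnajc3. The full cyclic AMP response element TGACGTCA was in 1.83% of all promoters and in Dnajc27, Dnajc30 and Hsp90ab1. The 2-unit element in the other order, TTCNNGAA, was in 8.77% of all promoters and 10 members (15.9%), among them Hspa4l, where it began 38 bases past the start. Dnajb9 held none of these motifs. A match says only that these letters are present in the window of 250 bases before and 50 after the start.

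Signal set which genes could be read. Where a gene had several probes, its value is that of the brightest over all arrays. In 60 of the 80 genes both RNAs were well above background, by the scanner software's flag, on both arrays at all 6 time points; 14 genes were so in neither RNA on any array on that probe, and 6 at some time points only. The dim probes included those that the file names for the inducible Hsp70 genes. The probe named Hspa1a was well above background on no array, that named Hspa1b in 7 of 12 control channels and 4 of 12 PACAP38 channels, and Hsph1, an Hsp110 exchange factor, in 5 of 12 of each. RefSeq gives the symbol Hspa1a to the accession of the probe that the file names Hspa1b. It gives the symbol Hspa1b to a probe outside the name rule, which the file names by a locus number and which was well above background in both RNAs on all 12 arrays. Its folds ranged from 0.859 at 60 min to 1.07 at 10 min, with 0.932 at 120 min, where the arrays gave 0.999 and 0.869. For the probe that the file names Hspa1b, the arrays of 120 min gave folds of 3.67 with PACAP38 in Cy5 and 0.36 in Cy3, and 1 Hsph1 spot of 120 min carried an outlier flag. Hspa1l, Hspa12a, Hspa12b, Hspb2, Hspb3, Hspb7, Hspb9 and 6 Dnaj genes were likewise well above background on no array on their brightest probe. The dimmer probe of Hspb7 passed in the PACAP38 RNA on 1 array of 15 min. Hspa2, a testis-rich Hsp70, was well above background in the control alone at 120 min, where it was at least 1.01-fold lower with PACAP38. With pooled RNA, fewer cells of a type and less RNA per cell cannot be told apart.

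Of 8 chromaffin markers, 7 were well above background in all 12 control channels and Syt1 in 9, while Gfap, Alb, Ptprc and Ins2 were so in none and Col1a1, a fibroblast collagen, in all 12. The immediate early genes Fos, Egr1 and Nr4a1 were counted higher from 10 to 120 min. Control signals were brighter on the later arrays, with a 75th percentile of 193 to 219 at 5 to 30 min, 269 to 278 at 60 min and 328 to 345 at 120 min. For that reason basal levels below are given as log2 signal over the array's 75th percentile, and folds are taken within an array. Over the 41 named genes with a level at all 6 time points, the SD of that level over the 6 control pools ran from 0.046 for Dnajc7 to 0.75 for Hspd1.

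From 5 to 30 min no member probe was counted in either direction. Among all 41012 probes, 0% were counted at 5 min, 0.0658% higher at 10 min, 0.0902% higher and 0.0268% lower at 15 min, and 0.249% higher and 0.102% lower at 30 min. All members with both RNAs well above background lay within 1.5-fold of the control at 5, 10 and 15 min, beside 99.85, 99.59 and 98.83% of all probes measured in the same way. Among members, 1 of 121 probes (0.826%) at 60 min was counted higher, beside 0.87% of all probes, and 0 lower, beside 0.375%. At 120 min 6 of 121 probes (4.96%), for 5 genes, were counted higher, beside 1.95% of all probes, and 0 lower, beside 1.53%. Among probes well above background in at least 1 RNA on both arrays, 6 of 95 members (6.32%) were counted higher at 120 min, beside 4.24% of 18586 probes, and 0 lower, beside 3.37%. With normexp background correction and loess, the shares of all probes counted higher and lower were 0.373 and 0.0317% after 60 min and 0.717 and 0.295% after 120 min of treatment, and 1 and 5 of the 121 member probes were counted higher. Under normexp and centring on the median, the member probes counted higher were 1 and 2, beside 0.266 and 0.436% of all probes.

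The median log2 fold of the 60 genes measured at 120 min was -0.019, from -1.07 for Hsf2 to 2.66 for Bag3, with quartiles of -0.23 and 0.28. Over all 15720 probes measured in the same way the median was -0.022. Of the 60 genes, 28 were above 0 and 32 below, and 78.3% lay within 1.5-fold, beside 78.3% of all probes. The time course shows the 5 counted genes against the rest.

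**Figure D1:**
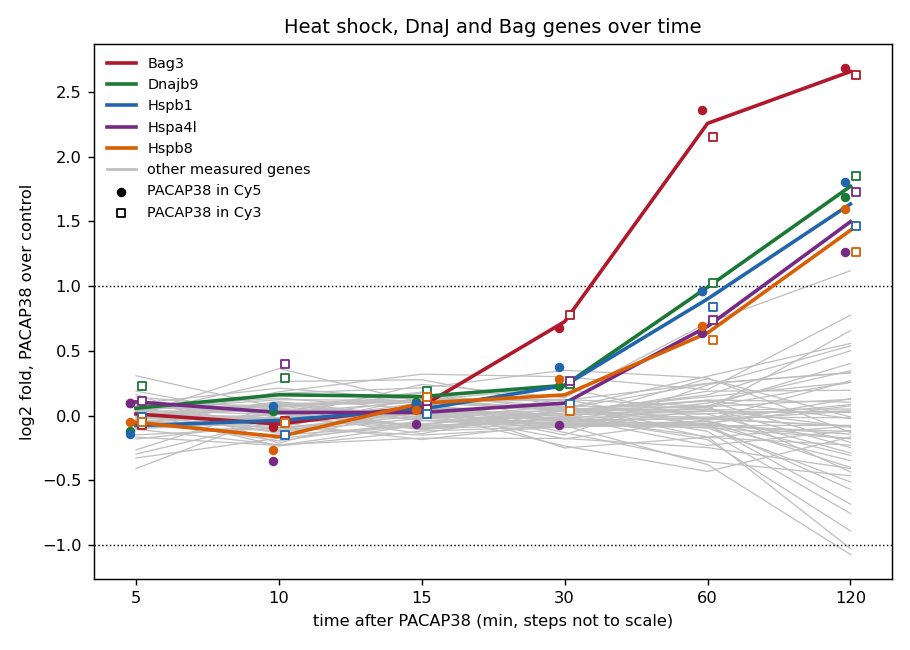
Log2 fold of PACAP38 over control (y) at each time point (x, equal steps, min) for genes with both RNAs well above background on both arrays; coloured lines are the 5 counted genes with the value of each array as a filled circle (PACAP38 in Cy5) or open square (Cy3), grey lines the others and dotted lines the 2-fold limits. Bag3 leaves the other genes at 30 min and reaches 6.30-fold at 120 min, and the other 4 coloured genes have the next highest folds at 120 min.

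Bag3, the cochaperone that links Hsp70 to small heat shock proteins, had the highest fold of the members measured at 30, 60 and 120 min. With PACAP38 in Cy5 and then in Cy3, its fold was 1.07 and 0.953 after 5 min, 0.939 and 0.974 after 10 min, 1.06 and 1.04 after 15 min, 1.60 and 1.71 after 30 min, 5.13 and 4.45 after 60 min, and 6.41 and 6.19 after 120 min. Both arrays of a time point lay close together. They carry the same pools, so this measures the scatter of arrays and not of pools. The folds of 30, 60 and 120 min were higher than those of 5 to 15 min and rose with each step. Its 1 probe lies at chr1:187804666-187804725 (rn4), the build of all probe positions given. The processed signal of the PACAP38 RNA went from 11587 at 5 min to 72364 at 120 min, while that of the control was between 9208 and 11579. Relative to the array's 75th percentile, the control level was 5.17 and 5.20 on the third slide and 5.78 to 5.93 on the other slides. The fold is taken within each array, against the control on the same array.

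Hspb1 (Hsp27), a small heat shock protein that also binds actin filaments, was, on the arrays in the same order, 1.95-fold and 1.79-fold the control after 60 min and 3.49-fold and 2.76-fold after 120 min. At 5 to 30 min its folds lay between 0.901 and 1.30 over all 8 arrays, and the folds of both late time points were higher. Its probe lies at chr12:21911494-21911664 and was printed on 10 spots, whose ratios were averaged. Hspb8 (Hsp22), the partner of Bag3, was 1.61-fold and 1.503-fold after 60 min and 3.02-fold and 2.40-fold after 120 min, against 0.832 to 1.22 at 5 to 30 min. Its probe is at chr12:41414450-41420599. The control level of Hspb8 was steady over the 6 pools, at 2.58 ± 0.061 (SD, log2 over the 75th percentile), and that of Hspb1 was 5.93 ± 0.16. With normexp background correction and median centring neither gene passed the limit on both arrays of 120 min, at mean folds of 2.72 for Hspb1 and 2.003 for Hspb8.

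No other Hspb gene was counted. For genes that were not counted, a pair of folds is that of 60 and 120 min, the mean of both arrays. Among the members described by such means, the arrays lay on opposite sides of the control for Hspb6, Hspa4, Hspbp1, Dnajc3 and Hsp90aa1 at 60 min, and for Hspb11, Hspd1, Bag2 and Hsp90aa1 at 120 min, so no direction is read from these. Hspb6 was 1.05-fold after 60 min and 1.09-fold after 120 min. Hspb11, a protein of ciliary transport, was 1.22-fold and 0.993-fold. Cryab, the αB-crystallin, is a small heat shock protein outside the name rule. It was 1.89-fold after 60 min and 2.20-fold after 120 min, with 1.83 on one array and 2.63 on the other, and so was not counted. Over the list of 9 small heat shock proteins and crystallins, 4 had signal, 2 were counted higher and 0 lower at 120 min, and the median log2 fold of the 4, Cryab among them, was 1.28, beside -0.022 over all probes measured and 4.24% of probes with signal counted higher and 3.37% lower.

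Dnajb9 (ERdj4), a J protein of the endoplasmic reticulum that brings the Hsp70 BiP to misfolded proteins and to the stress sensor Ire1, was counted on both of its probes. The brighter probe, at chr6:63584289-63584348, was on its arrays 1.94-fold and 2.03-fold the control at 60 min, one below the 2-fold limit and one above, and 3.22-fold and 3.61-fold at 120 min. At 5 to 30 min its folds were 0.922 to 1.22. The other probe was 1.91-fold after 60 min and 2.89-fold after 120 min. Its basal level was 3.34 ± 0.089 (SD) over the 6 control pools.

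No other member of the endoplasmic reticulum was counted. Hspa5 (BiP), the Hsp70 of that compartment, was 1.19-fold after 60 min and 1.26-fold after 120 min. Hsp90b1 (Grp94) was 1.07-fold and 1.27-fold, Dnajb11 (ERdj3) 1.18-fold and 1.45-fold, Hspa13 1.14-fold and 1.15-fold, and Dnajc3, an inhibitor of the eIF2α kinase Perk, 0.985-fold and 0.945-fold. Hspa5, Hsp90b1 and Dnajc3 are the genes whose promoters held the ER stress element. Of 20 genes measured on the list of endoplasmic reticulum chaperones, which adds disulfide isomerases and lectins, 1 was counted higher and 0 lower at 120 min, with a median log2 fold of 0.19, beside the same 4.24 and 3.37% of probes with signal. Outside the name rule, Calr was 1.52-fold and Herpud1, a target of the unfolded protein response, 0.739-fold at 120 min.

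Hspa4l (Apg-1), an Hsp110 exchange factor, was on its arrays 1.56-fold and 1.67-fold after 60 min and 2.40-fold and 3.32-fold after 120 min on its brighter probe, at chr2:127751484-127751543. At 5 to 30 min the folds were 0.785 to 1.32. The other probe was 1.13-fold after 60 min and 1.80-fold after 120 min and was not counted, so the probes have the same direction and differ in the call. Hspa4l was also not counted with normexp background correction, under loess or median centring. Its relative Hspa4 was 0.937-fold and 0.701-fold on its brightest probe. At 60 min the mean log2 fold over both its probes was 0.0045, beside -0.094 on the brightest, so the other probe lay above 0. At 120 min that other probe was not well above background in both RNAs on both arrays.

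The plot of the signals of both RNAs shows the same 5 genes before ratios are taken.

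**Figure D2:**
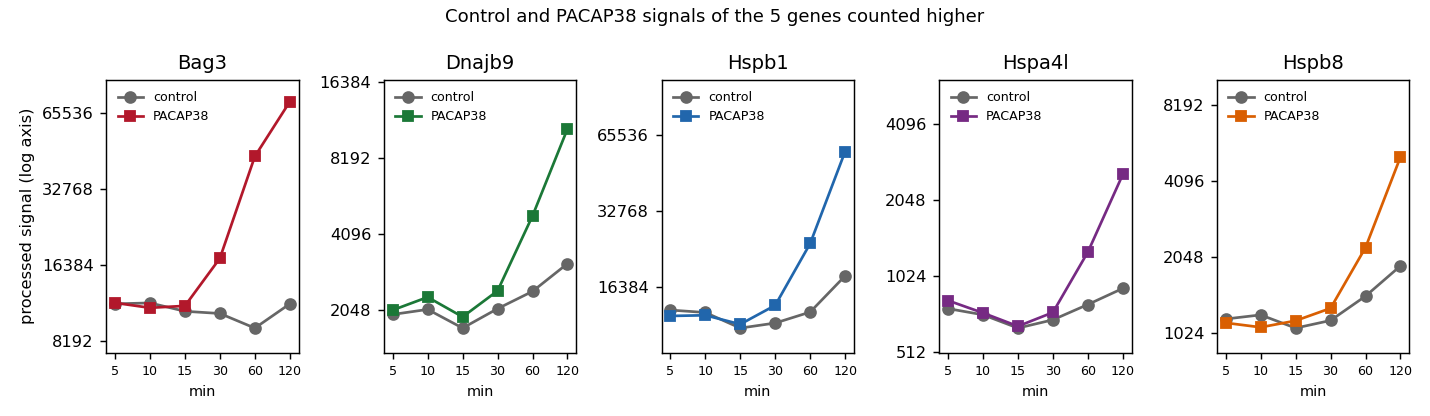
Processed signal (y, log axis, a different range in each panel) of control RNA (grey) and PACAP38 RNA (colour) by time point (x, min) for the 5 counted genes, as the mean of the log2 signals of both arrays. The RNAs overlie each other up to 15 min and separate at 60 and 120 min, and the control signals other than that of Bag3 are highest on the arrays of 120 min.

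No other Hspa gene and no Hsp90 gene was counted. Hspa8 (Hsc70), the constitutive Hsp70, was 1.11-fold after 60 min and 1.196-fold after 120 min on its brightest probe, and 1.22-fold, 1.38-fold, 1.42-fold and 1.59-fold on the other 4 at 120 min. Hsp90aa1 was 0.948-fold and 0.950-fold, with 1.38-fold on another probe at 120 min. Hsp90ab1 was 0.782-fold and 0.725-fold on its brightest probe, with 0.984-fold and 1.21-fold on the others at 120 min, so its probes differ in direction. Hspa14, a ribosome-associated Hsp70, was 0.880-fold and 0.540-fold, with 0.505 and 0.578 on the arrays of 120 min. The exchange factor Hspbp1 was 1.03-fold and 1.58-fold, and Hspbap1 0.891-fold and 0.854-fold. Of 13 genes measured on the list of cytosolic heat shock genes, 2 were counted higher and 0 lower at 120 min, with a median log2 fold of -0.074, beside 4.24 and 3.37% of probes with signal.

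Among mitochondrial chaperones at 120 min, Hspa9 (mortalin) was 1.26-fold, Hspd1 (Hsp60) 0.985-fold and Hspe1 (Hsp10) 0.945-fold. Of 13 genes on the list, all measured, 0 were counted in either direction, beside 4.24% of probes with signal counted higher and 3.37% lower. The median log2 fold was 0.034. The basal level of Hspd1 on its brightest probe ranged over the control pools from 3.997 at 5 min to 5.92 at 30 min, with its fold between 0.985 and 1.09 at all 6 time points.

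**Figure D3:**
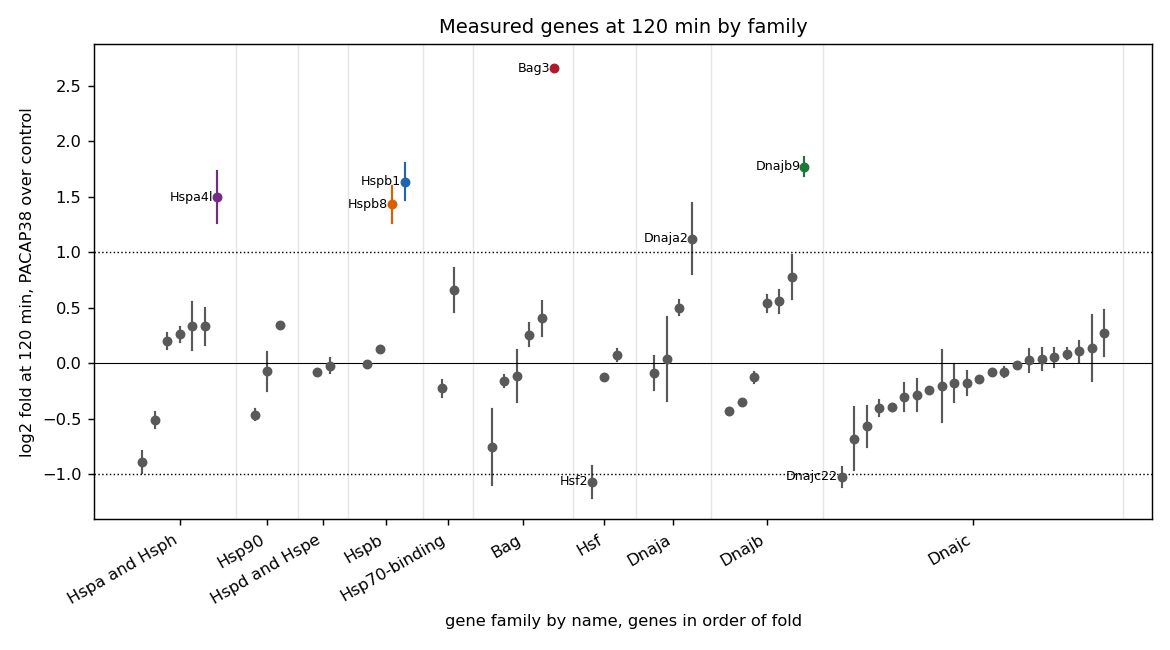
Log2 fold of PACAP38 over control at 120 min (y) for the 60 genes with both RNAs well above background on both arrays, in families by name (x); points are means of both arrays, vertical lines join the values of the 2 arrays and dotted lines mark the 2-fold limits. The counted genes lie in the Hspa, Hspb, Bag and Dnajb families. Of 22 Dnajc genes 15 lie below 0, beside 32 of all 60, and the Dnajc median is -0.16.

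No other Bag gene was counted. At 120 min Bag1, an Hsp70 exchange factor that also binds Raf-1, was 1.32-fold, Bag6, which guards newly made membrane proteins, 1.195-fold, Bag2, an inhibitor of the ligase Chip, 0.923-fold, and Bag5 0.892-fold. Bag4 (Sodd) was 0.593-fold, with 0.467 on one array and 0.752 on the other. All 6 Bag genes were measured at each time point.

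No heat shock factor was counted. Hsf1, the main activator of the heat shock response, was 0.944-fold after 60 min and 0.919-fold after 120 min, and Hsf4 0.960-fold and 1.05-fold. Hsf2, a factor linked to development, had the lowest fold of the measured members at 120 min. It was 0.770-fold after 60 min and 0.476-fold after 120 min, with 0.525 on one array and 0.431 on the other, of which only the second passes the limit. Its other probe was 0.667-fold at 120 min, in the same direction.

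The J proteins spread in both directions at 120 min. Of the genes with signal, 3 of 4 Dnaja genes, 4 of 7 Dnajb genes and 7 of 22 Dnajc genes lay above 0. Among all 60 members measured, 28 did. These are signs of the mean of both arrays, which did not always have the same sign. Dnaja2, a cytosolic partner of Hsc70, was 1.64-fold after 60 min and 2.17-fold after 120 min, with 1.74 and 2.71 on the arrays of 120 min, and was not counted. Dnajb6, which keeps aggregation-prone proteins soluble, was 1.23-fold and 1.47-fold, with 1.70-fold on another probe at 120 min. Dnajb2, a J protein rich in neurons, was 1.15-fold and 1.71-fold. Dnajb1 (Hsp40), the partner of inducible Hsp70 in the heat shock response, was 1.22-fold after 60 min and 0.915-fold after 120 min, with 1.08-fold on another probe at 120 min, which differs in direction.

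The low end is given among Dnaj genes with both RNAs well above background and the same direction on both arrays. Dnajc22 was 0.894-fold after 60 min and 0.491-fold after 120 min, with 0.461 and 0.524 on the arrays of 120 min. Dnajc6 (auxilin), which uncoats clathrin vesicles, was 0.623-fold at 120 min, with 0.512 and 0.758. Dnajc9, a histone chaperone, was 0.674-fold, with 0.839-fold on another probe. Dnajb4 was 0.740-fold, with 1.07-fold on another probe, which differs in direction, and Dnajc7 was 0.754-fold. By the same criterion the lowest after 60 min were Dnajc30, at 0.778-fold, Dnajc7, at 0.843-fold, Dnajc11, at 0.891-fold, Dnajc22 and Dnajb12, at 0.948-fold. Of the 5 vesicle and synaptic J proteins, 0 were counted at 120 min, beside 4.24% of probes with signal counted higher and 3.37% lower. Their median log2 fold was -0.17, beside -0.022 over all probes measured.

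**Figure D4:**
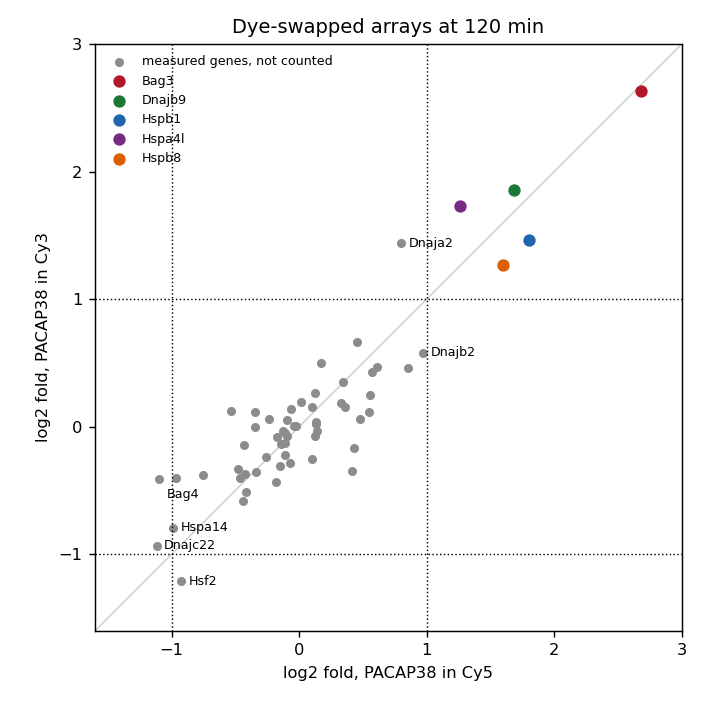
Log2 fold at 120 min with PACAP38 in Cy5 (x) against PACAP38 in Cy3 (y), 1 point per gene with both RNAs well above background on both arrays; dotted lines are the 2-fold limits and the grey line marks equal values. The 5 counted genes are the only points past both upper limits, no point is past both lower limits, and 48 of the 60 genes have the same sign on both arrays.

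The genes that work beside the members were also measured. Among 11 Hsp90 cochaperones, 0 were counted at 120 min, with a median log2 fold of 0.020. Of all probes with signal, 4.24% were counted higher and 3.37% lower at that time. Fkbp5, an immunophilin of steroid receptor complexes, was 0.529-fold, with 0.577 and 0.486 on the arrays, and Chordc1 0.733-fold. Unc45a, a cochaperone of myosin folding, was 2.65-fold at 60 min, where the arrays gave 1.197 and 5.86 and it was not counted, and 1.12-fold at 120 min. Among 12 subunits of the chaperonin TRiC and of prefoldin, 0 were counted at 120 min, beside the same 4.24 and 3.37% of probes with signal. The median was 0.030 and the highest fold was 1.83, for Cct4.

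Whether the fold of a gene depended on time was tested over the 6 time points, each the mean of its 2 arrays, with a slope on log2 time in limma and Benjamini-Hochberg adjustment over 20264 probes. Of 98 member probes fitted, 0 had an adjusted p below 0.05, beside 0.523% of all probes rising and 0.202% falling. At an unadjusted p below 0.05 there were 30 member probes (30.6%), 20 rising and 10 falling, beside 28.7% of all probes. The count depends on the model. With time in minutes 18 member probes rose and 10 fell, beside 2074 and 3268 of all probes. On probes with both RNAs above background on all arrays 10 of 80 rose and 1 fell, beside 473 and 503 of 13939. Either normexp scaling gave 0 member probes. With slide as a block there were also 0, beside 0 of all probes, and the smallest member adjusted p in limma was 0.895. In that model 5.1% of member probes had an unadjusted p below 0.05, beside 4.68% of all probes. Without the block, the slope cannot be told apart from a trend over the slides, which follow the order of time. The slope of Bag3 was 0.67 log2 units per doubling of time (SE 0.11, limma adjusted p = 0.0574), that of Hspb1 0.37 (SE 0.066, adjusted p = 0.0672), that of Dnajb9 0.36 (SE 0.076, adjusted p = 0.077), that of Hspb8 0.32 (SE 0.066, adjusted p = 0.0762) and that of Hspa4l 0.29 (SE 0.079, adjusted p = 0.0941). The lowest adjusted p among members was 0.0507, for 1 of 2 probes of Dnajc5, a vesicle J protein, at a slope of 0.19 (SE 0.027), while the other probe of Dnajc5 had 0.041 (SE 0.040).

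A second contrast, chosen after the data were seen, set the log2 folds of 60 and 120 min against those of 5 to 30 min in limma. It gave 4 member probes with a higher fold late and 0 with a lower one, beside 1.51% and 1.39% of all probes. The difference was 2.27 log2 units for Bag3 (SE 0.25, limma adjusted p = 0.019), 1.23 and 1.15 for the probes of Dnajb9 (SE 0.21 and 0.18, adjusted p = 0.0442 and 0.0349) and 1.23 for Hspb1 (SE 0.21, adjusted p = 0.0451). For Hspb8 it was 1.02 (SE 0.23, adjusted p = 0.0765) and for Hspa4l 1.03 (SE 0.22, adjusted p = 0.0679). The late time points are those of the third slide, so time and slide cannot be told apart in this contrast.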

How the data were processed

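RNA of PC12 cells was measured on 12 Agilent arrays with 2 colours. The authors scanned them and extracted signals with Agilent Feature Extraction (11.0.1.1 in the submitters' processing notes, 12.0.3.1 in the file headers, and an older version in the study's methods). The deposited processed Cy3 and Cy5 intensities are background-subtracted and LOWESS dye-normalized by the authors, and the mean and background intensities are unnormalized. The deposited log10 ratios are red over green, made by the authors' software and not turned for the dye swap. The deposited p-values are the software's own, per spot.

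From the processed intensities, log2 ratios of PACAP38 to control were turned by dye. Control spots (1639 of 45018) and spots with outlier flags were left out, a time point with a flagged spot was left out of that probe's fit, and spots of a probe were averaged, with their median p-value. The dye-swapped arrays carry identical pools, so single time points were not tested, and the number of arrays limits the precision. In the control channel, 38.4 to 49.6% of an array's spots passed the flag for signal well above background. For a lower bound ("at least"), signals were loess and Aquantile normalized, and the RNA with signal was divided by the dim RNA's signal or, if higher, by the dimmest signal that passed that flag. Slopes were fitted with limma 3.58.1 in R 4.3.3 and tested on simulated data. Python 3.11.15 (numpy 2.4.6, pandas 2.3.3, matplotlib 3.10.9) was used elsewhere. Probe positions are those of the files, on rn4. Promoters are RefSeq's, on GRCr8, matched by symbol for 63 of 80 genes.

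Named are all genes with a counted probe, of the members or of other lists. The Hsp, Hsf and Bag genes with signal at 120 min are also named. So are the 5 highest and 5 lowest Dnaj genes at 60 and 120 min. These were taken among Dnaj genes with both RNAs well above background and the same direction on both arrays. Further genes named (Cryab, Calr, Herpud1, the probe RefSeq names Hspa1b, Fkbp5, Chordc1, Unc45a, Cct4, Dnajc3, Dnajc5 and dim genes) were chosen after their values were seen. The members, lists and rules were chosen with earlier results of these data known. Alternatives were other fold and p-value limits, 1 array alone, normexp (offset 50) with loess or median centring, the deposited table of log10 ratios, filters on dim probes, the mean of a gene's probes, genes in place of probes, slide as a block, time in minutes, leaving out each time point, and late against early time points. Proteome measurements were not analysed here.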

Additional observations from a re-analysis of the deposited data

Results flagged for a closer look

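Among the 41 named genes with a control level at all 6 time points, the control pool of 1 time point lay far from the other 5 in 3 genes, beside about 1 in 20 by chance. Levels are log2 control signal over the array's 75th percentile. Bag2 was at 2.75 at 120 min, against 3.50 to 3.84 in the others. Hspa14 was at 4.70 at 60 min, against 4.86 to 4.88. Hspa9 was at -0.40 at 5 min, against -0.81 to -0.67.

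The slope on log2 time gave 0 member probes at an adjusted p below 0.05 in limma. A contrast of the late time points (60 and 120 min) with the early ones (5 to 30 min) was chosen after the data were seen. At the same limit it gave 4 member probes with a higher fold late, beside 1.51% of all probes. It gave 0 with a lower one, beside 1.39%. The difference was 2.27 log2 units for Bag3, 1.15 and 1.23 for the 2 probes of Dnajb9 and 1.23 for Hspb1. The part of the slide in these differences cannot be told apart from that of time.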

How the results depend on the processing

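No fold of a counted gene at 60 or 120 min changed direction under the alternatives run. With a fold limit of 1.5, 1 probe was counted higher at 30 min (Bag3), 7 at 60 min and 10 at 120 min, and 3 lower at 120 min (Hsf2, Dnajc22 and Hspa14), beside 0.407, 1.41, 3.03 and 3.85% of all probes. Without a p-value limit 1 probe, of the dim gene Dnajb5, was counted higher at 10 min, beside 0.115%. With 1 array alone the counts higher were 0 to 2 at 5 min, 0 to 2 at 15 min and 1 to 2 at 60 min, and the counts lower were 0 to 2 at 5 min, 1 to 2 at 10 min, 0 to 1 at 60 min and 2 to 3 at 120 min. On 1 array 0.78 to 2.37% of all probes were counted higher at 5, 15 and 60 min, and 0.683 to 3.98% lower at 5, 10, 60 and 120 min. With normexp and median centring 2 probes were counted higher at 120 min, of Bag3 and Dnajb9, beside 0.436% of all probes. That scaling moved the median of all measured probes at 120 min by -0.12 and the folds to 5.43 for Bag3, 2.66 for Dnajb9, 2.72 for Hspb1, 2.003 for Hspb8 and 1.99 for Hspa4l. With normexp and loess Hspa4l was 2.33-fold and was no longer counted.

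With time in minutes 18 of 98 member probes rose and 10 fell, beside 2074 and 3268 of 20264 probes. On probes with both RNAs above background on all arrays 10 of 80 rose and 1 fell, beside 473 and 503 of 13939. Without the 5 min time point 1 rose, beside 121 of all probes, while leaving out any other time point, slide as a block, either normexp scaling and no filter gave 0. With slide as a block 5 member probes (5.1%) had an unadjusted p below 0.05, beside 4.68% of all probes. The contrast of late and early time points gave 4 higher and 0 lower, beside 1.51% and 1.39% of all probes. The causes were not tested. The brightest probe of 14 genes was well above background on no array. No paired analysis was possible because the labels give no replicate numbers, beyond the pairing of both pools on each array, which every ratio uses.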
